A study of Mus musculus with 4 samples.

Results

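Of the voltage-gated channels that set how readily a pyramidal neuron fires, 8 genes from 3 families were followed here: *Kcnq3* and *Kcnq5* of the KCNQ family, *Kcnh1*, *Kcnh3* and *Kcnh7* of the EAG (KCNH) family, and *Hcn2*, *Hcn3* and *Hcn4* of the HCN family. They were taken by symbol from the 23420 gene symbols counted in each sample, and all 8 were found and passed the filter on low counts. The counts come from RNA-seq of mouse prefrontal cortex (PFC) punches, with 2 samples from C57BL6/J mice given a GFP AAV9 (control) and 2 samples from C57BL6/J mice given an AAV9 that carries a short hairpin RNA against *Ash1L* (*Ash1L* shRNA). The paper calls the control virus a scrambled shRNA AAV, and the labels call it GFP-AAV9. *Ash1L* encodes a histone methyltransferase that is a risk factor for autism and epilepsy. The series text gives an age of 6 to 8 weeks for both groups and names 3 *Ash1L* shRNA mice and 2 control mice, while the methods of the paper state that tissue from several mice was pooled for each sample. Punches were chosen by GFP fluorescence and hold every cell type of the injected region. The hairpin was driven by a U6 promoter, which is active in all cell types.

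KCNQ channels carry the M-current, a slow potassium current that opens below the spike threshold and restrains repetitive firing. It is shut when Gq-coupled receptors such as muscarinic receptors deplete the membrane lipid PIP2. EAG-family channels are voltage-gated potassium channels with a cyclic nucleotide-binding homology domain that does not respond to cAMP, and they fall into Eag, Erg and Elk branches. HCN channels carry the inward current Ih, open on hyperpolarization, are eased open by cAMP, and in cortical pyramidal neurons lower the input resistance of dendrites. Variants in several genes of these families cause epilepsy.

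The 250 bases before the annotated start are given for *Kcnh1* (chr1:192190527-192190776, plus strand), *Kcnh7* (chr2:63184288-63184537, minus strand) and *Hcn2* (chr10:79716384-79716633, plus strand). They come from RefSeq on build GRCm38.p6, each written 5′ to 3′. The choice followed the values in these samples. *Kcnh1* and *Kcnh7* were lower in both *Ash1L* shRNA samples, and the groups of *Hcn2* overlapped. Whether the sequences bear on these values was not tested. Capitals mark GGGCGG on either strand, the core of a GC box.
*Kcnh1*: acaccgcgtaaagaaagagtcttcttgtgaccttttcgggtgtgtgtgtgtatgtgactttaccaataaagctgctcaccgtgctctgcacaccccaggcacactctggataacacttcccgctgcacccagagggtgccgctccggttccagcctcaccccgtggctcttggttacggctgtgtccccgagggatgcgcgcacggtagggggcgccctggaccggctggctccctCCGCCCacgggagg
*Kcnh7*: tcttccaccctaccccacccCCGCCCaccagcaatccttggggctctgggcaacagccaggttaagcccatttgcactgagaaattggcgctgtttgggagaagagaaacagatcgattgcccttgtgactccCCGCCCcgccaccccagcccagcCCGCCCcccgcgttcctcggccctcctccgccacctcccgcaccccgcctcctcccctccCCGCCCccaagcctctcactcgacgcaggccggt
*Hcn2*: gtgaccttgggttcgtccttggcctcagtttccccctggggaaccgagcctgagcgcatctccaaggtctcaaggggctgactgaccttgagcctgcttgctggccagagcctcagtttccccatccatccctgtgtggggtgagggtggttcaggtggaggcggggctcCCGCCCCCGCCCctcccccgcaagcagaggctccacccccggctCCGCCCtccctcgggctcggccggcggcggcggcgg
The *Kcnh1* stretch held 1 match, the *Kcnh7* stretch 4 and the *Hcn2* stretch 3, and 32.7% of the 32851 stretches of this length in the table held at least 1. These stretches held 17, 16 and 16 CpG dinucleotides, against a median of 6 over the table, where 76.5%, 74.6% and 74.6% of stretches held fewer. For 5 of the 8 members the table held an entry. Of those not printed, the *Kcnq5* stretches held 3 and 14 CpG dinucleotides and 0 matches. The *Hcn4* stretch held 25 CpG dinucleotides and 2 matches. A match is a run of letters and says nothing of what binds there, and the counts below do not measure these promoters.

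*Ash1l* (ENSMUSG00000028053, mm10 chromosome 3 from 88950622 to 89079375), the target of the hairpin, had normalized counts of 5961 and 7057 in the control samples and 5246 and 3345 in the *Ash1L* shRNA samples. The groups did not overlap, but they were apart by less than the control samples differed. The log2 fold change was -0.60 ± 0.22 (SE, adjusted p = 0.275 by the quasi-likelihood test of edgeR). *Ash1l* was DOWN as defined next, and stopped being so without control sample 1 (-0.71), control sample 2 (-0.48) or *Ash1L* shRNA sample 2 (-0.31). Normalized counts are the deposited counts brought to a common library size by TMM scaling. Totals ran from 14251190 to 35764874 counts per sample. DOWN and UP use the limits of the study, an unadjusted P under 0.05 and at least a 1.2-fold change. Unless another test is named, P here is from edgeR's quasi-likelihood test, while the study used DESeq2. Of the 16232 genes tested, 8.28% were DOWN and 8.61% UP. At an adjusted p below 0.05, edgeR passed 1 gene, which was lower (0.00616%), while 2746 had an unadjusted p under 0.05, DESeq2 passed 421 genes and edgeR's likelihood ratio test 479. For 1 value, the smallest two-sided p that an exact permutation of 4 samples allows here is 0.333. No source states that the samples of a group came from separate litters or batches, so p-values measure the spread between these samples, which may be partly technical.

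Of the 8 members, 3 were DOWN, *Kcnq3*, *Kcnh1* and *Kcnh3*, against 8.28% of all genes tested. None was UP, against 8.61%. With DESeq2 4 members were DOWN, *Kcnh7* being added, against 7.79% of all genes. For all 5 KCNQ and EAG members the highest *Ash1L* shRNA value was under the lowest control value, which was so for 26.8% of all genes tested. The 3 HCN members had overlapping groups, so 0 members were higher without overlap, against 26.5% of all genes, and 5 were separated in either direction, against 53.2%. The fold change was below 0 for 6 of the 8, against 50.3% of all genes. The median log2 fold change of the 8 was -0.34, and that of all genes tested was -0.003. After adjustment over all genes tested, 0 members passed 0.05 by the quasi-likelihood test, DESeq2 or the likelihood ratio test, and the 8 adjusted p-values of the first, in edgeR, ran from 0.260 to 0.953. Without control sample 2, 0 of the 8 were DOWN, against 1.86% of all genes tested in that fit. Without *Ash1L* shRNA sample 1, 5 were DOWN and 4 (*Kcnq5*, *Kcnh1*, *Kcnh3* and *Kcnh7*) passed an adjusted p of 0.05, against 16.5% of all genes DOWN in that fit and 2502 past the adjusted p. Without *Ash1L* shRNA sample 2, 2 were DOWN, against 5.05% of all genes, and without control sample 1, 3 were, against 4.14%. When replicate numbers were a block, 2 were DOWN, against 6.28% of all genes, since *Kcnq3* no longer passed (adjusted p = 0.401 in edgeR).

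**Figure D1:**
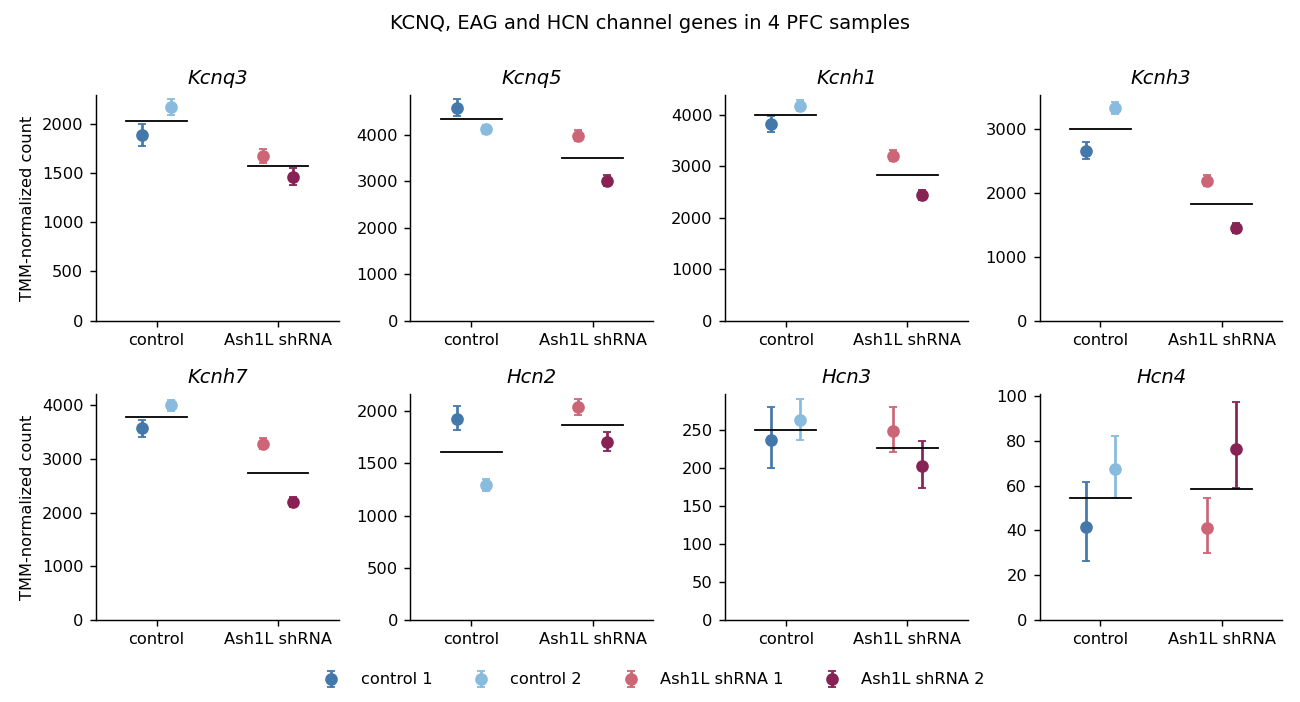
TMM-normalized counts (vertical axes, from 0) of the 8 genes in control samples 1 and 2 and *Ash1L* shRNA samples 1 and 2. Points are samples with exact 95% Poisson intervals of counting error and black lines are group means. The *Ash1L* shRNA points of *Kcnq3*, *Kcnq5*, *Kcnh1*, *Kcnh3* and *Kcnh7* all lie below the control points, and those of the 3 HCN genes overlap with them.

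*Kcnh3* (ENSMUSG00000037579, chromosome 15 from 99224861 to 99242817) encodes Kv12.2, an Elk-branch potassium channel of forebrain pyramidal neurons that is open near rest. Its normalized counts were 2652 and 3325 in the control samples and 2189 and 1451 in the *Ash1L* shRNA samples. The groups did not overlap, but the gap between them was smaller than that between the control samples. The lowest value, in *Ash1L* shRNA sample 2, was 1.03 log2 units under the control mean, where sample 1 was at -0.44. The means were 2988 ± 475 and 1820 ± 522 (SD, n = 2 each). The log2 fold change, -0.72 ± 0.22 (SE, adjusted p = 0.260 in edgeR), was close to those of its relatives *Kcnh4* (-0.70) and *Kcnh5* (-0.67). Without control sample 2 it was -0.55 and *Kcnh3* was not DOWN. The annotation places *Mcrs1* on the opposite strand, sharing 1 exonic base, and *Mcrs1* was DOWN too, at -0.61.

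*Kcnh1* (ENSMUSG00000058248, chromosome 1 from 192190774 to 192510159) encodes Kv10.1, the founding Eag-branch channel. The control samples had 3831 and 4183 normalized counts and the *Ash1L* shRNA samples 3207 and 2444. Again both *Ash1L* shRNA samples were lower, and sample 2 was lower than sample 1 by more than the control samples differed. Its log2 fold change was -0.50 ± 0.16 (SE, adjusted p = 0.260 in edgeR), with a 95% interval from -0.88 to -0.13. Without control sample 2 it was -0.44 and no longer DOWN.

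*Kcnh7* (ENSMUSG00000059742, chromosome 2 from 62693414 to 63184287) encodes Kv11.3, an Erg-branch channel found in the nervous system. It had 3576 and 4003 normalized counts in control and 3285 and 2198 in *Ash1L* shRNA samples. Sample 1 was close to the lower control sample and sample 2 stood well below. The log2 fold change, -0.47 ± 0.20 (SE, adjusted p = 0.306 in edgeR), missed the DOWN limit, and it passed that limit with DESeq2 and with the likelihood ratio test. Without *Ash1L* shRNA sample 1 it was -0.79 and DOWN, and without sample 2 it was -0.21. The interval of the fit to all samples ran from -0.95 to 0.02. *Gca*, on the opposite strand, shares 696 exonic bases with *Kcnh7* and had a log2 fold change of -0.05. Of the other 13 family genes described here, *Kcnh7* was nearest to *Kcnh1* in its 4 differences from the control mean, with a Euclidean distance of 0.14 log2 units, and *Kcnh1* was nearest to *Kcnh7*.

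*Kcnq3* (ENSMUSG00000056258, chromosome 15 from 65986387 to 66286642) encodes Kv7.3, a subunit of the heteromeric neuronal M-channel. Its normalized counts were 1885 and 2169 in control samples and 1675 and 1464 in *Ash1L* shRNA samples. The groups were apart, but by less than the gap between the control samples. The means were 2027 ± 200 and 1569 ± 150 (SD, n = 2 each), and the log2 fold change was -0.37 ± 0.13 (SE, adjusted p = 0.263 in edgeR). Without control sample 2 the fold change was -0.27, without *Ash1L* shRNA sample 2 it was -0.28, and it was not DOWN in either case.

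*Kcnq5* (ENSMUSG00000028033, chromosome 1 from 21398403 to 21961942) encodes Kv7.5, a subunit that carries M-current and part of the slow afterhyperpolarization in cortex and hippocampus. It had 4579 and 4115 normalized counts in control and 3980 and 3013 in *Ash1L* shRNA samples. *Ash1L* shRNA sample 1 was just under control sample 2, and sample 2 was lower. The log2 fold change was -0.31 ± 0.16 (SE, adjusted p = 0.358 in edgeR) with an interval from -0.70 to 0.07, so it was not called. Without *Ash1L* shRNA sample 1 it was -0.53 and DOWN, and without sample 2 it was -0.12. Among the other 13 family genes described here, *Kcnq3* was the nearest to *Kcnq5* in its 4 differences from the control mean (0.30 log2 units), and *Kcnh1* was the nearest to *Kcnq3* (0.26 log2 units).

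*Hcn2* (ENSMUSG00000020331, chromosome 10 from 79716634 to 79736108) encodes a strongly cAMP-sensitive HCN subunit found widely in the brain. The control samples had 1930 and 1294 normalized counts and the *Ash1L* shRNA samples 2039 and 1707. Control sample 2 was the lowest of the 4, and control sample 1 lay between the *Ash1L* shRNA samples. The control samples differed from each other by more than the group means of 1612 ± 450 and 1873 ± 235 (SD, n = 2 each), and their counting intervals, from 1820 to 2050 and from 1240 to 1350, did not touch. The log2 fold change was 0.22 ± 0.21 (SE, adjusted p = 0.605 in edgeR), its interval running from -0.28 to 0.73. Its direction rested on control sample 2: it was 0.54 and UP without control sample 1, and -0.05 without control sample 2.

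*Hcn3* (ENSMUSG00000028051, chromosome 3 from 89146074 to 89160196) encodes a slow HCN subunit with little response to cAMP, and it lies 66.7 kb beyond the end of *Ash1l*. It had 237.8 and 264 normalized counts in control and 249.6 and 203 in *Ash1L* shRNA samples, so the groups overlapped. The log2 fold change was -0.15 with an interval from -0.64 to 0.34. *Pklr*, on the opposite strand, shares 711 exonic bases with it and had 2 to 8 raw counts per sample. *Hcn4* (ENSMUSG00000032338, chromosome 9 from 58823412 to 58863175), the pacemaker subunit of the heart and of some thalamic neurons, rested on 24 and 97 raw counts in control and 46 and 65 in *Ash1L* shRNA samples. Its normalized counts of 41.4 and 67.3 against 40.9 and 76.3 overlapped fully, and the interval of its log2 fold change, from -1.02 to 1.16, spans 0. The counting intervals of the *Ash1L* shRNA samples, from 29.9 to 54.6 and from 58.9 to 97.3, did not touch, so these samples differed by more than counting error. Among the other family genes, *Hcn2* was nearest to *Kcnh8* (0.61 log2 units), *Hcn3* to *Kcnh6* (0.21) and *Hcn4* to *Kcnh2* (0.74).

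**Figure D2:**
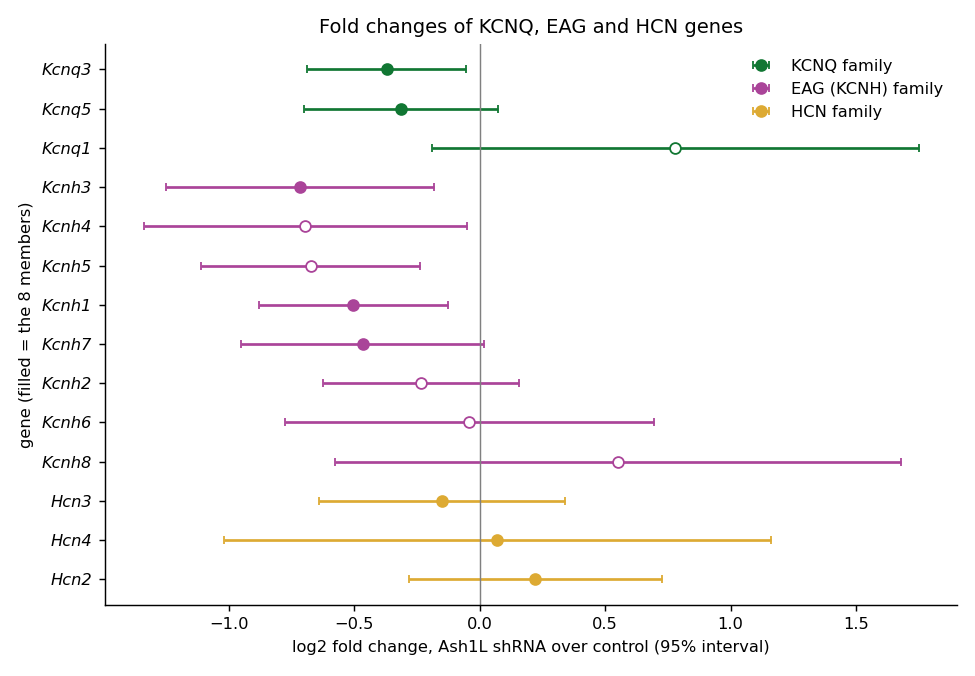
Log2 fold change of *Ash1L* shRNA over control samples (horizontal axis) with 95% intervals from edgeR's quasi-likelihood test for 14 genes of the 3 families, filled for the 8 members and open for their relatives. The 3 EAG members lie between -0.72 and -0.47 and the 3 HCN members between -0.15 and 0.22.

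The 6 relatives of the same families described here passed the filter, and 2 of them were DOWN and 0 UP. *Kcnh5*, the second Eag-branch gene, had 1954 and 1610 normalized counts in control and 1281 and 947 in *Ash1L* shRNA samples, which gave -0.67 ± 0.18 on the log2 scale (SE, adjusted p = 0.255 in edgeR). *Kcnh4*, an Elk-branch gene, had 167 and 218 against 136 and 102 and a log2 fold change of -0.70, and *Kcnh3* was nearest to it among the family genes, at 0.15 log2 units. With the replicate block, *Kcnh5* stayed DOWN, while *Kcnh4* (adjusted p = 0.415 in edgeR) did not. Without control sample 1, 0 of the 6 were DOWN (*Kcnh5* at -0.52 and *Kcnh4* at -0.86). Without control sample 2 (*Kcnh4* at -0.49) or *Ash1L* shRNA sample 2 (*Kcnh4* at -0.51), *Kcnh5* alone was.

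The other relatives were not called. *Kcnh2*, the Erg-branch gene also expressed in heart, was at -0.23. *Kcnh6* was at -0.04, and *Kcnh8*, with 10 to 23 raw counts per sample, at 0.55. *Kcnq1*, best known from the heart, was at 0.78, and its *Ash1L* shRNA values, 49.7 and 73.9 normalized counts, were the higher ones over 29.3 and 40.9 in control. *Kcnq1* had 17 to 63 raw counts, and *Kcnq1ot1* on the opposite strand, with 4198 to 11851 raw counts, shares 121 exonic bases with it. The strand setting of the counting is not given in the sources used here, so reads of the pair cannot be told apart.

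**Figure D3:**
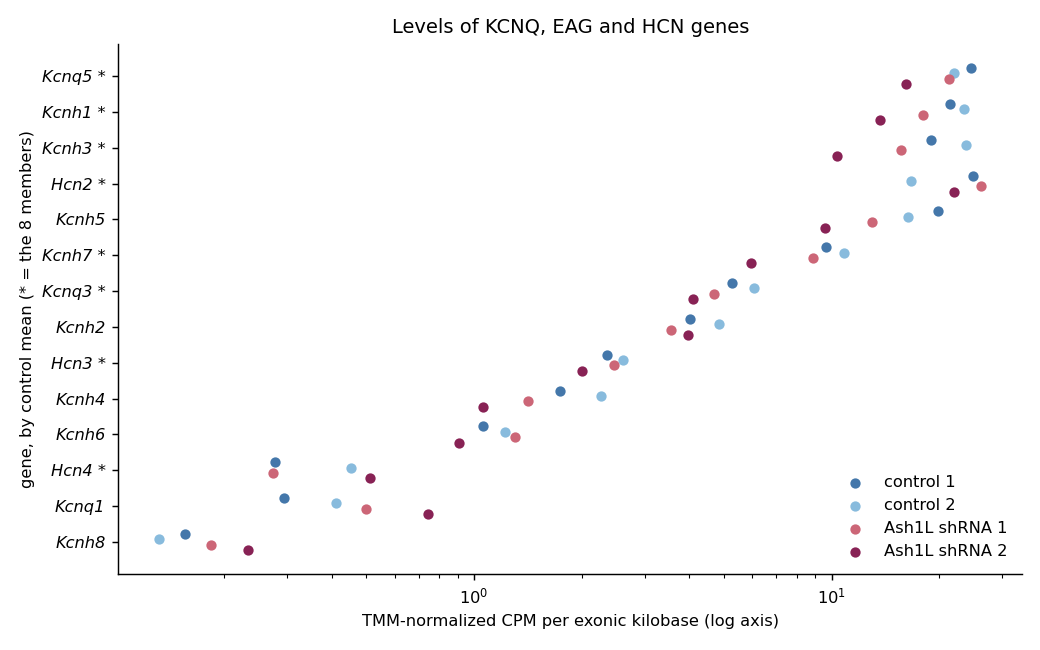
TMM-normalized CPM per exonic kilobase (horizontal log axis) of 14 genes in the 4 samples, ordered by control mean, with the 8 members starred. *Kcnq5*, *Kcnh1*, *Kcnh3* and *Hcn2* are at the top, from 16.7 to 24.8 in the control samples, and *Hcn4* is under 1 in every sample.

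To compare levels between genes, normalized CPM values (counts per 1000000 counts of the sample) were divided by exonic length. On this scale the control mean was 23.2 for *Kcnq5*, 22.5 for *Kcnh1*, 21.3 for *Kcnh3* and 20.7 for *Hcn2*. The control values of each of these overlapped with those of the next, so their order is not resolved. *Kcnh7* followed at 10.2, *Kcnq3* at 5.67, *Hcn3* at 2.48 and *Hcn4* at 0.365, and each of these steps was wider than the spread of the control samples. In *Ash1L* shRNA samples *Hcn2* had the highest mean of the 14, at 24.1 ± 3.03, followed by *Kcnq5* at 18.7 ± 3.66 and *Kcnh1* at 15.8 ± 3.03 (SD, n = 2 each). Lengths count every annotated exon of GENCODE M21, from 3195 bases in *Hcn2* to 15226 in *Kcnh7* among the members, and which transcripts the tissue uses was not measured.

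**Figure D4:**
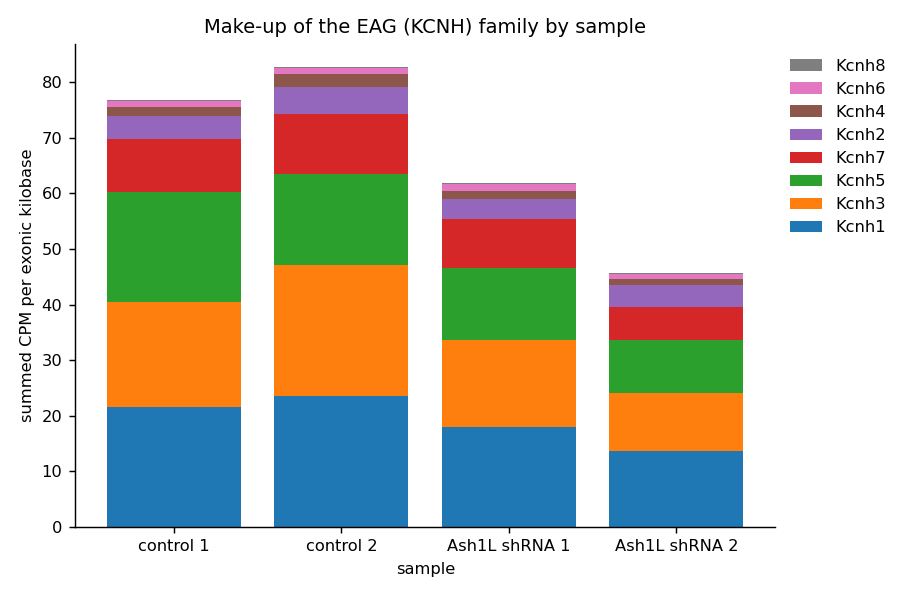
TMM-normalized CPM per exonic kilobase, summed over the 8 EAG genes, in each of the 4 samples (bars from 0), coloured by gene. The bars reach 76.8 and 82.8 in control and 61.9 and 45.8 in *Ash1L* shRNA samples, and *Kcnh1* is the lowest segment of each.

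Summed on this per-length scale, the 8 EAG genes stood at 76.8 and 82.8 in the control samples and at 61.9 and 45.8 in the *Ash1L* shRNA samples. The groups did not overlap, and sample 2 was again the lowest. *Kcnh1* made up 28.0% and 28.3% of the sum in control and 29.0% and 29.9% in *Ash1L* shRNA samples. *Kcnh3* made up 24.7% and 28.7% against 25.2% and 22.6%, and *Kcnh7* between 12.6% and 14.3% in the 4 samples, with overlapping groups for both. Between members, the ratio of *Kcnh3* to *Hcn2* in the same sample was 0.763 and 1.43 in control and 0.596 and 0.472 in *Ash1L* shRNA samples, and the ratio of *Kcnq5* to *Kcnq3* was 4.65 and 3.63 against 4.55 and 3.94. The first separated the groups by less than the control samples differed, and the second overlapped.

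Proteins that join or place these channels went in both directions. Of 18 such genes found in the files, 16 passed the filter, 1 was DOWN and 2 were UP, with a median log2 fold change of 0.04. The small KCNQ partners *Kcne1* and *Kcne2* did not pass. *Pex5l*, which encodes TRIP8b, the HCN trafficking subunit, was at -0.03, and *Ank3*, whose ankyrin G holds KCNQ channels at the axon initial segment, at -0.02. *Lrmp*, a modulator of HCN4, was DOWN, with 93.1 and 103.3 normalized counts against 64.0 and 36.4 and a log2 fold change of -0.96. *Bace1*, a protease that also binds KCNQ channels, was UP, with 4172 and 3540 against 5392 and 5358 (log2 fold change 0.48, adjusted p = 0.253 in edgeR). *Slc5a3*, an inositol transporter that associates with KCNQ channels and feeds PIP2 synthesis, was UP at 0.85, with 5783 normalized counts in *Ash1L* shRNA sample 2 and 3261 in sample 1 over 2852 and 2170 in control. The ends of the range were *Lrmp* at -0.96 and *Kcne4*, also a small KCNQ partner, at 1.03 (adjusted p = 0.349 in edgeR). Without control sample 2, 0 of the 16 were DOWN or UP.

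Of 15 genes for Gq-coupled receptors, their G proteins and PIP2 enzymes, 14 passed the filter, 13 were lower, 3 were DOWN and 0 UP, with a median of -0.18. *Chrm1*, the muscarinic receptor through which acetylcholine shuts the M-current, had 4395 and 3921 normalized counts in control and 3237 and 2386 in *Ash1L* shRNA samples, and its -0.56 ± 0.17 on the log2 scale (SE, adjusted p = 0.260 in edgeR) was the lowest value of the list. *Gnaq* was DOWN at -0.38 and *Gna11* at -0.30, the G protein subunits that couple it to phospholipase C. *Plcb1*, that phospholipase, was at -0.31 and not called, and *Plcb4* had the highest value, 0.15. *Chrm5*, a rarer muscarinic receptor, did not pass the filter. Without control sample 1, 0 of these genes were DOWN, without control sample 2, 1 was, and without *Ash1L* shRNA sample 1, 7 were. The share of all genes DOWN in the same fits was 4.14%, 1.86% and 16.5%. The highest count came with the highest share, and the lower counts did not follow the order of their shares. Of 7 calcium- and sodium-activated potassium channel genes, which carry other afterhyperpolarizing currents, 0 were DOWN or UP by edgeR, with 0 at an unadjusted p under 0.05, and DESeq2 and the likelihood ratio test also called 0. Without *Ash1L* shRNA sample 1, 2 were DOWN and 1 UP, and without sample 2, 1 was DOWN. They ran from -0.30 in *Kcnt2* to 0.18 in *Kcnt1*, with a median of -0.17.

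Marker lists of the cell types in the punch moved beside these genes. The 8 excitatory neuron markers were all above 0 in every sample. They summed to 69043 and 80478 normalized counts in control and 63350 and 51189 in *Ash1L* shRNA samples. The gap between the groups in this sum was smaller than that between the control samples. Of these 8 markers, 7 were lower and 4 DOWN. Of 10 markers of layer 5 and 6 neurons, 5 were DOWN, with a median of -0.45, and of 6 upper layer markers 1 was, with a median of -0.22. The sum of 12 pan-neuronal markers was 220326 and 226171 in control and 204517 and 180762 in *Ash1L* shRNA samples, with a median of -0.06 and 1 DOWN. Of 10 interneuron markers 5 were DOWN, and of 11 astrocyte markers 7 were. Of 8 striatal neuron markers, 6 were higher and 3 UP, and their sum was 5268 and 5024 in control and 5969 and 7992 in *Ash1L* shRNA samples. Of 10 oligodendrocyte markers 1 was DOWN. Of 10 microglia markers, 8 endothelial and 6 thalamic markers, 0 were DOWN or UP by edgeR, and the microglia sum was 33125 in *Ash1L* shRNA sample 1 and 12844 in sample 2, around 23936 and 24709 in control. *Gbx2*, a thalamic marker, was at 0 in at least 1 sample. With single samples left out, the DOWN count ran from 1 to 7 for the excitatory list, from 1 to 5 for layers 5 and 6, from 1 to 6 for interneurons and from 4 to 8 for astrocytes, with the lowest excitatory count without either control sample and the highest without *Ash1L* shRNA sample 1. Of the microglia markers 9 were DOWN without *Ash1L* shRNA sample 1 and 6 UP without sample 2. The share of all genes DOWN, given above for each of these fits, changed as well. It was lowest without control sample 2 and highest without *Ash1L* shRNA sample 1, and the share UP also differed between fits. Changes in the marker counts are therefore not a result about the lists alone. In bulk tissue, fewer cells of a type and less RNA per cell cannot be told apart. The part that these marker shifts have in the channel values was not tested.

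**Figure D5:**
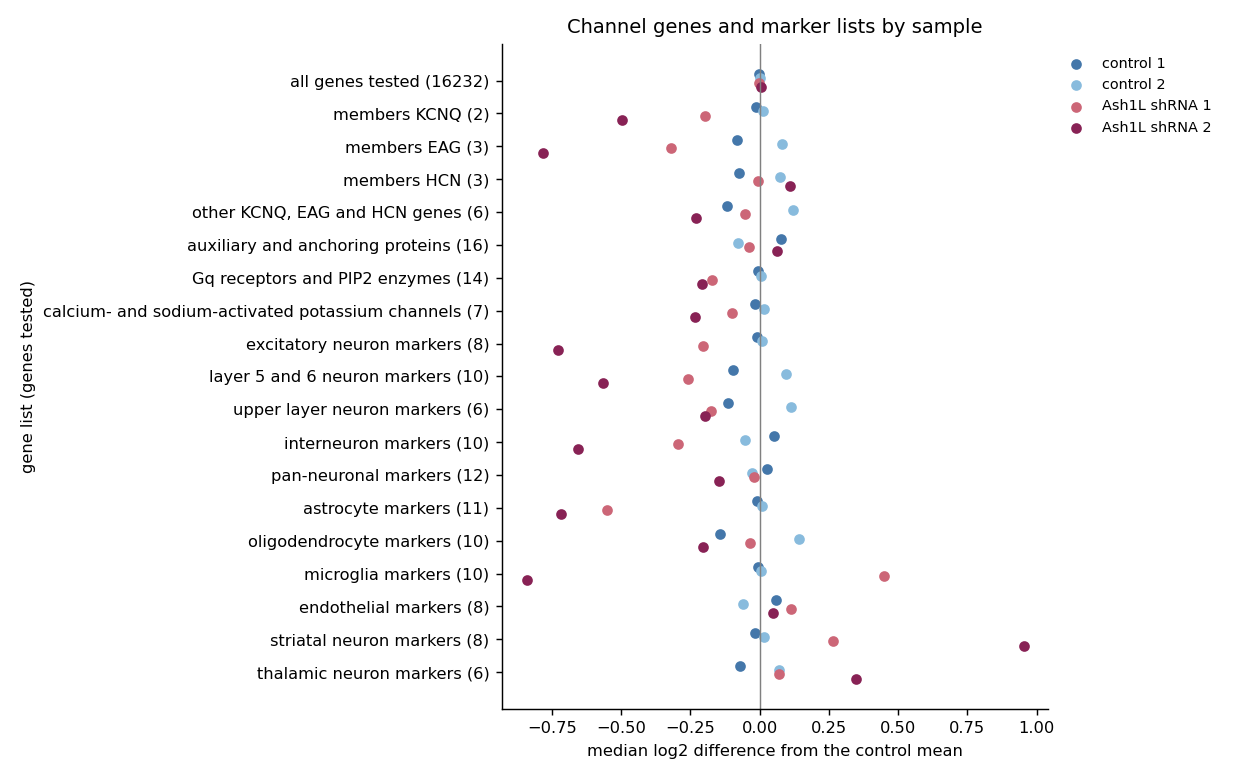
Median log2 difference from the control mean (horizontal axis) of each gene list in each sample, with the number of genes tested in brackets. In *Ash1L* shRNA sample 2 the EAG members were at -0.78, the excitatory neuron markers at -0.73, the KCNQ members at -0.50 and the HCN members at 0.11.

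Counted against the summed excitatory neuron markers of the same sample, a ratio chosen after seeing the data, some members no longer separated the groups. Such sums weigh abundant markers most, and the difference of the excitatory sum between the control samples enters each ratio. In control sample 1, *Camk2a* gave 29186 and *Slc17a7* 22484 of the 69043 excitatory marker counts, and *Camk2a* was itself DOWN at -0.42. *Kcnq3* had 27.3 and 26.9 counts per 1000 marker counts in control and 26.4 and 28.6 in *Ash1L* shRNA samples, which overlapped. *Kcnq5* overlapped too, at 66.3 and 51.1 against 62.8 and 58.9, and so did *Kcnh7*. *Kcnh3* remained lower, at 38.4 and 41.3 against 34.5 and 28.3, and *Kcnh1* at 55.5 and 52.0 against 50.6 and 47.7. For *Kcnh1* the gap between the groups was smaller than that between the control samples. *Hcn2* was higher in both *Ash1L* shRNA samples, at 28.0 and 16.1 against 32.2 and 33.3, also by less than the control samples differed. *Hcn3* was higher too, at 3.44 and 3.28 against 3.94 and 3.97. Of all genes tested, 5.04% were lower and 58.1% higher without overlap in this ratio, so being higher was the common case. Against the pan-neuronal markers, 11.4% of all genes tested were lower and 46.5% higher without overlap. *Kcnh1* was lower here too, at 17.4 and 18.5 per 1000 marker counts against 15.7 and 13.5. *Kcnh3*, at 12 and 14.7 against 10.7 and 8.03, *Kcnh7*, at 16.2 and 17.7 against 16.1 and 12.2, and *Kcnq3*, at 8.56 and 9.59 against 8.19 and 8.10, were lower with a gap between the groups smaller than that between the control samples. *Hcn2* was higher with such a small gap, at 8.76 and 5.72 against 9.97 and 9.44, and *Kcnq5*, *Hcn3* and *Hcn4* overlapped.

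The *Ash1L* shRNA samples were not alike. For all 5 KCNQ and EAG members sample 2 was farther below the control mean than sample 1, from -0.47 against -0.27 log2 units in *Kcnq3* to -1.03 against -0.44 in *Kcnh3*. The 8 members together made up 762.7 and 782.9 CPM in the control samples, 682.8 in *Ash1L* shRNA sample 1 and 532.0 in sample 2. *Ash1l* itself was also lower in sample 2 than in sample 1. Marker sums differed between these samples too, at 33125 in sample 1 and 12844 in sample 2 for microglia. For striatal neurons they were 5969 and 7992. A link between *Ash1l* and the channel values was not tested.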

How the data were processed

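Total RNA from PFC punches was depleted of ribosomal RNA and made into stranded libraries. Alignment by the authors was with STAR on mm10, and featureCounts gave the deposited values, unnormalized counts for each symbol (14251190 to 35764874 per sample). The labels instead name Cutadapt and TopHat2, and strand and multiple-mapping settings are not given in the sources used here, so overlapping genes may share reads. Poisson intervals cover counting error only.

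All 4 samples were fitted together in edgeR 4.0.16 (R 4.3.3): filterByExpr, TMM, robust dispersions, and the quasi-likelihood F test between the groups. Adjusted p-values are Benjamini-Hochberg values across all 16232 tested genes. Standard errors are the fold change over the square root of F. The tests were also run on counts simulated with the same spread in both groups, which need not hold for these samples, and no result here rests on that run. Differences per sample are of log2(normalized count + 1). Positions and exonic lengths came from GENCODE M21. Alternatives were DESeq2 1.42.0, edgeR's likelihood ratio test, RLE and library-size scaling, other filters, a 1.5-fold limit, the replicate block and each sample left out.

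Named were all members and their relatives, of which some are not reported here, and in other lists the called genes and both ends of the range. *Pex5l*, *Ank3*, *Plcb1*, *Camk2a* and *Slc17a7* were chosen after their values were seen, and other marker genes are mainly given as counts. The members and lists were chosen with earlier results of these data known. Same-numbered samples share only a number. Across genes, their deviations from group means correlated at -0.15. With 2 samples per group, the deviations within a group mirror each other, so the 2 same-numbered pairs are not independent.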

Additional observations from a re-analysis of the deposited data

How the results depend on the processing

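With 2 samples in each group, the results depended most on single samples. Over the 4 fits that each leave out 1 sample, log2 fold changes ran from -1.05 to -0.45 for *Kcnh3*, from -0.72 to -0.32 for *Kcnh1*, from -0.79 to -0.21 for *Kcnh7*, from -0.48 to -0.27 for *Kcnq3*, from -0.53 to -0.12 for *Kcnq5* and from -0.97 to -0.31 for *Ash1l*. It changed sign for *Hcn2* (-0.047 to 0.54), *Hcn4* (-0.45 to 0.49) and *Kcnh6* (-0.34 to 0.19). DOWN members ranged from 0 to 5, UP members from 0 to 1, members higher without overlap from 0 to 1 and members past an adjusted p of 0.05 from 0 to 4. Over all genes tested, 306 to 2718 were DOWN and 423 to 2368 UP, and 5936 to 6869 were lower and 6063 to 6899 higher without overlap. In the other fixed lists 11 to 59 genes were DOWN and 0 to 14 UP, against 31 and 5. A group left with 1 sample was assumed to vary like the other.

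*Kcnh7* passed the P limit at -0.47 with DESeq2, with the likelihood ratio test and without a filter, and at -0.49 with the replicate numbers crossed. At a 1.5-fold limit 1 member, 491 genes in all DOWN and 765 UP passed. With the replicate block *Kcnq3* lost its call at -0.37 (adjusted p = 0.401 in edgeR), no other member's call changed, and 1 of the 6 relatives was DOWN. With it 1020 genes were DOWN and 1052 UP. Crossing the numbers, chosen after seeing the data since the correlation was below -0.1, gave 4 members DOWN, and 1736 DOWN and 1541 UP in all. Adjusted over all genes, 0 genes passed 0.05 with the block, 34 without a filter and 16 with crossed numbers. The cause of these differences was not tested. RLE and library-size scaling and the stricter filter changed no member's call. *Hcn4* rested on 24 to 97 counts, and its *Ash1L* shRNA samples differed by more than counting error.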
